A study of Mus musculus with 4 samples.

Results

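The genes described here are 10 transcription factors of the heart, taken by symbol: Gata4, Gata6, Tbx5, Tbx20, Nkx2-5, Mef2a, Mef2c, Hand2, Meis1 and Meis2. All 10 were found, each in 1 row, among the 21884 genes of the count matrices. Counts came from single-nucleus RNA-seq of 4 mouse hearts, 1 library per heart. Every heart came from a male wild-type C57BL/6J offspring that was itself injured at day 1 post partum and was taken 21 days after the injury. In 2 libraries the father had also been injured, and in the other 2 the father was uninjured, so no heart came from an uninjured offspring. Each library was loaded for 10000 nuclei after homogenisation and an antibody step against Ter119 to exclude blood cells. The heart is the replicate in every comparison.

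GATA4 and GATA6 are zinc-finger proteins that bind GATA motifs, TBX5 and TBX20 are T-box proteins, and NKX2-5 is a homeodomain protein. In cardiac progenitors these 5 act at shared enhancers of sarcomere, ion channel and natriuretic peptide genes. MEF2A and MEF2C are MADS-box proteins that cooperate with them in muscle and also act in endothelial and immune cells, HAND2 is a basic helix-loop-helix protein of the ventricular and endocardial lineages, and MEIS1 and MEIS2 are TALE homeodomain cofactors. In the mature heart TBX5 is known for its part in atrial identity and the conduction system.

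The regulatory proteins of this group bind short motifs, so the stretches before the starts of genes in the group were searched for one another's motifs. The RefSeq promoter table (GRCm38.p6) held 9 starts for 7 of the 10 genes, and the 250 bases before each start were read. The 4 windows given here were chosen because they lie wholly before the exons that GENCODE M21 annotates for the gene, and because these genes have their highest levels in different cell classes. Sequences run 5′ to 3′ on the gene's strand, and capitals mark matches, on either strand, to GATAA (the GATA core), TCACAC (part of the T-box element), AAGTG (the NKX2-5 core), TGACAG (the MEIS core) or the MEF2 motif.
Tbx20, chr9:24774304-24774553, minus strand: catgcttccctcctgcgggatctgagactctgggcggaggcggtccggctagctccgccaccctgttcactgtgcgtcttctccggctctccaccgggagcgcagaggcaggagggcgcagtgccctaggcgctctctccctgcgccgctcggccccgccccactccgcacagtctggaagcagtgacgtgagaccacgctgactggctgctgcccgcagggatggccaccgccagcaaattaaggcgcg
Hand2, chr8:57320733-57320982, plus strand: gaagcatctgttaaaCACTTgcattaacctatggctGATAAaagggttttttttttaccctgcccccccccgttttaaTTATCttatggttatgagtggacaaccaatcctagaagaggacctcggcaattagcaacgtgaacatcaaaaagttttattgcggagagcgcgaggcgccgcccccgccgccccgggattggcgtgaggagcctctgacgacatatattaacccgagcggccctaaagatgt
Mef2a, chr7:67372859-67373108, minus strand: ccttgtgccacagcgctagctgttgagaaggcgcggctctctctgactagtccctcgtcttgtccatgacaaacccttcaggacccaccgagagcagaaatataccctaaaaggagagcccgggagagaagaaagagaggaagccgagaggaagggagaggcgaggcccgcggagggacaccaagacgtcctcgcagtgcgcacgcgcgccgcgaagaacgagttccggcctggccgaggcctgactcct
Mef2c, chr13:83503784-83504033, plus strand: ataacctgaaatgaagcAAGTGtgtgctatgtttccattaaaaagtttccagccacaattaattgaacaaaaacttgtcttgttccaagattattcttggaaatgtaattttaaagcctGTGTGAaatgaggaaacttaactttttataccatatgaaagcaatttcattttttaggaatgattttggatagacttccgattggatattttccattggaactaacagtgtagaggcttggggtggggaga
The Hand2 window held 2 GATA matches, which begin 214 and 172 bases before the start, and 1 NKX2-5 match. The Mef2c window held 1 T-box and 1 NKX2-5 match, and the Tbx20 and Mef2a windows held none of these letters. GC content was 68.8% before Tbx20, 61.6% before Mef2a, 49.2% before Hand2 and 33.6% before Mef2c, beside a mean of 53.2% over the 32851 windows in the table. Over those windows GATAA was present in 22.6%, TCACAC in 12.3%, AAGTG in 40.7%, TGACAG in 15.9% and the MEF2 motif in 1.69%, so each match is a description of letters and not a site.

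The genes lie on 10 different chromosomes in GENCODE M21 (GRCm38), and the identifiers in the files match that annotation. Tbx5 spans positions 119832668 to 119885219 of chromosome 5 on the plus strand, and Tbx20 spans 24718138 to 24774303 of chromosome 9 on the minus strand. Mef2a (chromosome 7, 67231163 to 67372858) overlaps 1 other counted gene, Lysmd4, which lies on the opposite strand and had 7.01% as many UMIs. The strand setting of the counting is not given in the sources used here, so the split of reads between those genes is uncertain.

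After filtering, 6791 to 9537 nuclei per library remained, with 15651493 to 32862239 UMIs and a median of 1860 to 2665 UMIs per nucleus. The second library of the uninjured-father group was the shallowest and had the fewest nuclei. Nuclei were clustered without these 10 genes, and clusters were named from marker lists, which left 13 classes with at least 20 nuclei in every library. These were 8261 ventricular and 730 atrial cardiomyocyte nuclei, 8325 fibroblast, 7299 vascular endothelial, 3105 pericyte, 1478 macrophage or monocyte, 1106 endocardial, 711 B lymphocyte, 504 smooth muscle, 402 T or NK lymphocyte, 330 lymphatic endothelial and 237 Schwann or glial nuclei, and a further cardiomyocyte cluster of 441 nuclei. That further cluster carried the cardiomyocyte list at 71.0% to 79.0% of the ventricular level and had Grip1 and Slc24a2 among its leading genes. It is called the Grip1 cardiomyocyte cluster here, and "other cardiomyocyte" in the plots. Any pair of libraries shared at most 33 barcodes. The 12 general cardiomyocyte markers summed to a mean of 6.51% (endocardial) to 22.1% (T or NK lymphocyte) of the ventricular level in the classes that are not cardiomyocytes. Low values of a cardiomyocyte gene in those classes stand beside these percentages, and the part of cardiomyocyte RNA in them was not tested. Levels below are CPM, counts per 1000000 UMIs, of the UMIs summed over a class in a library, with the mean ± SD of 4 libraries. Because the clusters come from the same nuclei, differences between classes are descriptions and carry no test. Nuclear 3′ counts are not scaled per length, so levels are compared across classes for 1 gene and not between genes.

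Gata4 was highest in the 3 cardiomyocyte classes. Its level was 801 and 780 CPM in ventricular cardiomyocytes of the injured-father hearts and 742 and 690 CPM in those of the uninjured-father hearts, a mean of 753 ± 48.9 CPM. Atrial cardiomyocytes (716 ± 27.2 CPM) and the Grip1 cluster (776.5 ± 52.0 CPM) overlapped this range. Fibroblasts (420 ± 29.2 CPM), pericytes (410 ± 28.3 CPM) and endocardial nuclei (401 ± 39.7 CPM) came next, with libraries that overlapped one another and stayed below every cardiomyocyte library, and smooth muscle (327 ± 39.0 CPM) overlapped the lowest of them. These levels were 55.8%, 54.5% and 53.2% of the ventricular level, against 7.58%, 9.63% and 6.51% for the summed cardiomyocyte markers in the same classes. Vascular endothelial nuclei held the lowest level, 106 ± 12.99 CPM. Of all Gata4 UMIs, 69.0% lay in cardiomyocytes.

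Gata6 had a different pattern outside the cardiomyocytes. Endocardial nuclei carried 293 ± 28.1 CPM, next to 284 ± 26.0 CPM in ventricular cardiomyocytes, 299.5 ± 43.3 CPM in the Grip1 cluster and 256 ± 52.2 CPM in atrial cardiomyocytes, and these 4 classes overlapped. Fibroblasts followed at 147 ± 10.3 CPM, below every library of those 4. Pericytes, which were in the second tier for Gata4, had the lowest mean Gata6 level of the 13 classes at 40.5 ± 11.7 CPM. Their libraries overlapped those of other low classes, among them Schwann or glial nuclei (41.3 ± 17.0 CPM, on 21 UMIs) and macrophages or monocytes (60.7 ± 18.3 CPM).

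Tbx5 was highest in atrial cardiomyocytes, which held 1075 and 1320 CPM in the injured-father hearts and 1280 and 1065 CPM in the uninjured-father hearts. The Grip1 cluster held 355 ± 91.7 CPM and ventricular cardiomyocytes 102 ± 16.2 CPM, and the libraries of these 3 classes did not overlap. Some chamber markers also lay between in the Grip1 cluster. Myl4 was 97.2 to 190 CPM there, against 466 to 844 CPM in atrial and 10.7 to 14.6 CPM in ventricular nuclei. The atrial marker Kcnj3, at 489 to 740 CPM, instead overlapped the ventricular 456 to 598 CPM. In the other 10 classes the mean ran from 5.64 CPM in lymphatic endothelial nuclei to 51.4 CPM in endocardial nuclei. Atrial nuclei were 2.15% of all nuclei and held 41.6% of the Tbx5 UMIs, close to the 40.2% held by ventricular nuclei, which were 24.3% of nuclei. A Tbx5 UMI was seen in 95.1% to 96.5% of atrial nuclei per library, in 27.4% to 46.5% of ventricular nuclei and in 1.56% to 4.76% of B lymphocyte nuclei, which should lack it. Median depth was 3304 to 4781 UMIs in atrial, 3168.5 to 5112.5 in ventricular and 1018 to 1370 in B lymphocyte nuclei. With each nucleus thinned to 1000 UMIs, these shares averaged 63.1%, 9.63% and 1.15%, leaving out 231 shallower B lymphocyte nuclei and 1 ventricular nucleus.

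Tbx20, the other T-box gene, was highest in fibroblasts. The 4 libraries there held 860.3, 846, 768.9 and 775 CPM, in the order of the injured-father and then the uninjured-father hearts. Atrial cardiomyocytes followed at 473 ± 64.8 CPM, below every fibroblast library, then pericytes at 366 ± 17.8 CPM and the Grip1 cluster at 364 ± 40.9 CPM. Ventricular cardiomyocytes held 264 ± 19.1 CPM, and vascular endothelial nuclei were lowest at 72.6 ± 6.57 CPM. Fibroblasts held 47.0% of all Tbx20 UMIs and cardiomyocytes 37.2%.

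Nkx2-5, an early cardiac lineage factor, was sparse, with 699 UMIs over all nuclei. Cardiomyocytes held 86.3% of them. Levels were 20.4 ± 5.37 CPM in the Grip1 cluster, 12.2 ± 1.37 CPM in ventricular and 11.9 ± 5.51 CPM in atrial cardiomyocytes, with overlapping libraries. The highest mean elsewhere was 5.35 CPM in B lymphocytes, which rested on 5 UMIs. A Nkx2-5 UMI was seen in 5.81% of ventricular nuclei on average and in 0.678% of B lymphocyte nuclei, at the depths given above.

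The MEF2 genes were highest outside the cardiomyocytes. Mef2a was present in every class, from 321 CPM in Schwann or glial nuclei to 1225 ± 68.6 CPM in macrophages or monocytes, whose 4 libraries (1239 and 1313, then 1152 and 1195 CPM) lay above those of every other class. Pericytes (816 ± 27.8 CPM) and vascular endothelial nuclei (748 ± 10.6 CPM) came next, and ventricular cardiomyocytes were the seventh of 13 at 619 ± 21.5 CPM. Mef2c was highest in B lymphocytes (1255 ± 230 CPM), macrophages or monocytes (1106 ± 105 CPM) and smooth muscle (958 ± 129 CPM), with overlap between neighbours in that order. Vascular endothelial nuclei held 836 ± 26.2 CPM of Mef2c, while ventricular cardiomyocytes held 240 ± 22.8 CPM, the tenth of 13.

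Hand2 was low everywhere, with 1260 UMIs in all. Endocardial nuclei held the highest mean, 48.0 ± 22.6 CPM, but their libraries spread widely: 21.7 and 40.6 CPM in the injured-father hearts and 54.0 and 75.5 CPM in the uninjured-father hearts. The Grip1 cluster (21.1 ± 4.74 CPM) overlapped the lowest endocardial library, and ventricular cardiomyocytes held 17.4 ± 2.85 CPM. Atrial cardiomyocytes held 8.24 ± 1.62 CPM.

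The MEIS genes were widespread. Meis1 was highest in fibroblasts at 496 ± 26.6 CPM, above every library of the next class, the Grip1 cluster at 418 ± 34.8 CPM, and lowest in vascular endothelial nuclei at 128 ± 12.4 CPM. Meis2 was highest in endocardial nuclei, where the libraries held 1461 and 1524 CPM (injured fathers) and 1598 and 1447 CPM (uninjured fathers). Lymphatic endothelial nuclei came second for Meis2 at 912 ± 169 CPM, while vascular endothelial nuclei held 182 CPM, so the 3 endothelial classes did not overlap for Meis2. Ventricular cardiomyocytes held 578 ± 60.4 CPM and fibroblasts 557 ± 38.2 CPM of Meis2, with overlap.

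**Figure D1:**
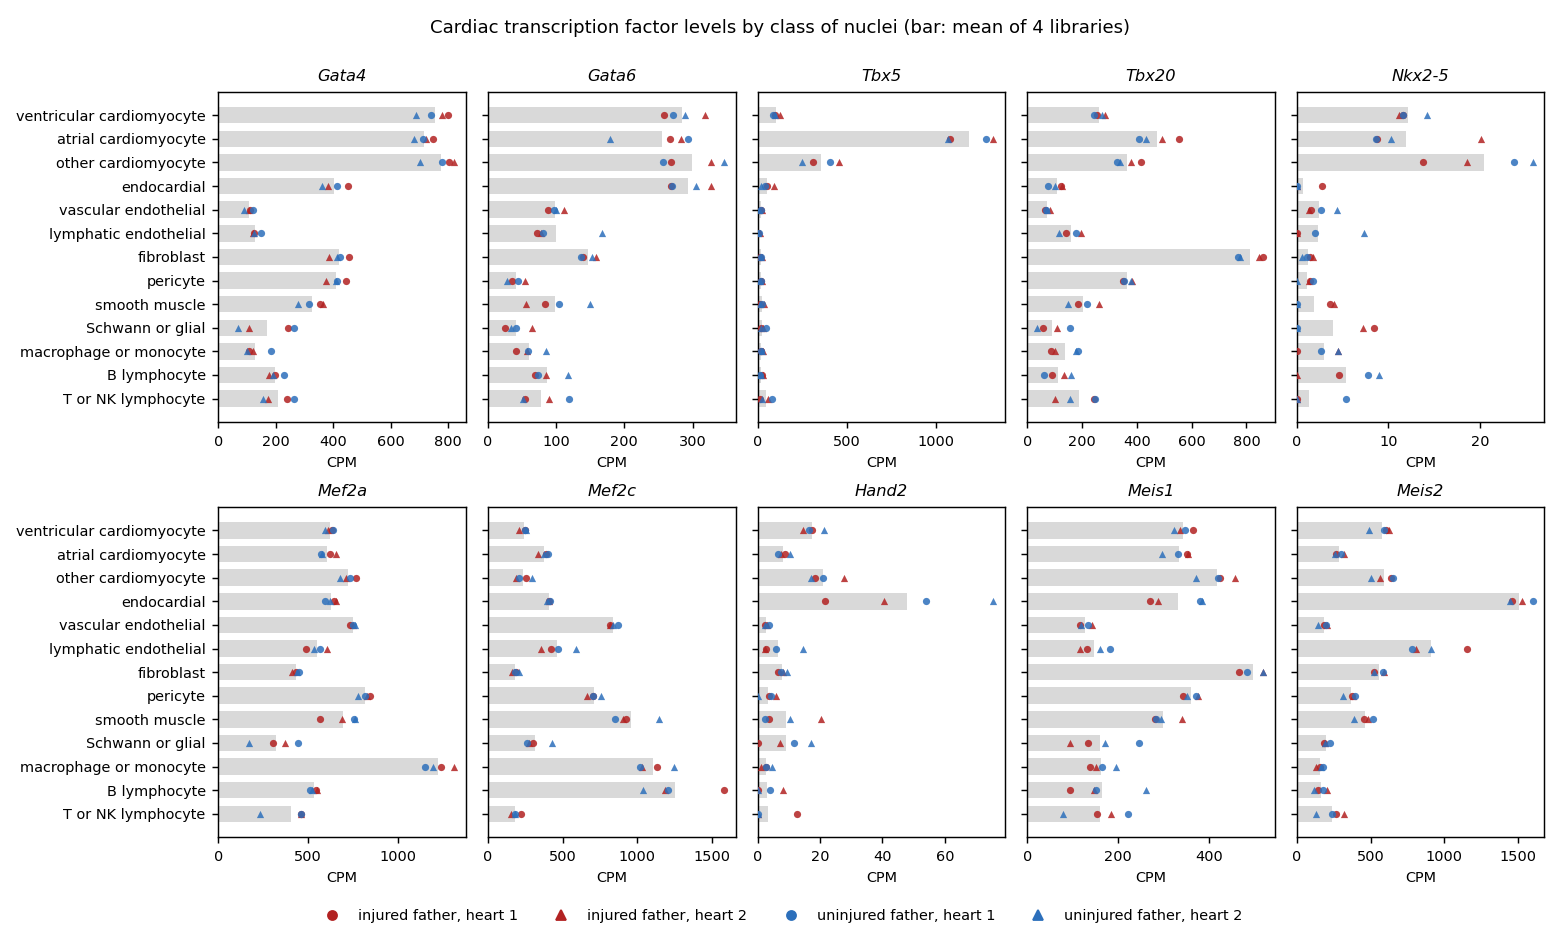
Level of each factor in CPM (horizontal axis, linear from 0, own scale per panel) in 13 classes of nuclei. Bars are means of 4 libraries, red marks are the 2 hearts with injured fathers and blue marks the 2 with uninjured fathers. Tbx5 stands at 1185 CPM in atrial cardiomyocytes, Tbx20 peaks in fibroblasts, Meis2 in endocardial nuclei, Mef2a in macrophages or monocytes and Mef2c in B lymphocytes.

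Within the fibroblasts the same factors differed among 4 clusters. A cluster of 279 nuclei led by Kcnma1, Abi3bp and Dkk3, the last of which is also on the atrial marker list, held 2375 and 2541 CPM of Tbx20 in the injured-father hearts and 2290 and 1822 CPM in the uninjured-father hearts. The other fibroblast clusters held 978 ± 101 CPM (led by Sntg1 and Ccbe1), 685 ± 40.3 CPM (Pcdh9 and Hmcn2) and 510.5 ± 58.5 CPM (Gfpt2 and Adgrd1), so no library of theirs reached those of the Kcnma1 cluster. Meis2 was also highest in the Kcnma1 cluster, at 1138 ± 149 CPM against means of 469.5 to 668 CPM in the others. Meis1 overlapped between the Kcnma1 cluster (534 ± 75.2 CPM) and the Sntg1 cluster (530 ± 15.5 CPM), and Gata4 in the Kcnma1 cluster spread from 439 to 673 CPM. In smooth muscle the GATA genes went opposite ways between the clusters: Gata4 was 431 ± 46.3 CPM and Gata6 59.6 ± 19.1 CPM in the cluster with Dgkb among its leading genes, against 185.5 ± 91.4 and 152 ± 72.1 CPM in the cluster with Itga8. The Gata4 ranges of those 2 clusters did not overlap, but the Gata6 ranges did.

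**Figure D2:**
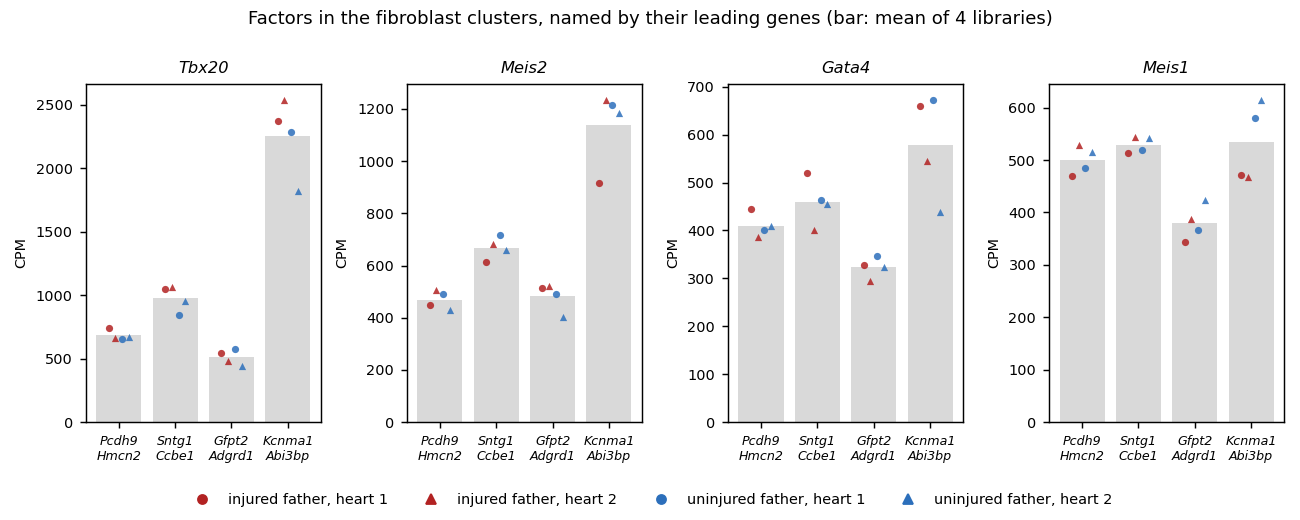
CPM (vertical axis, linear from 0, own scale per panel) of 4 factors in the fibroblast clusters, each named by its leading genes. Bars are means of 4 libraries and marks are single hearts, red for injured and blue for uninjured fathers. Tbx20 lies between 1822 and 2541 CPM in the Kcnma1 cluster and at most at 1066 CPM in every library of the other clusters.

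The genes with the most similar profile over the 13 class means were found for each factor among 12222 genes, by Pearson correlation of log2(CPM + 1). All points share their libraries, so the coefficients are descriptions. Tbx5 was most like Rp1 (r = 0.94), Kcnj5 (0.92) and Kcnj3 (0.91), the latter pair encoding channel subunits of the muscarinic potassium current, and Kcnj3 is on the atrial marker list. Tbx20 was most like Acss3 (0.95), Rgma (0.94) and Gbf1 (0.91), and Nkx2-5 most like Ak1 (0.94), Kcna4 (0.94) and Clasp1 (0.94). Gata4 was most like Nckap5 (0.95), Gm14399 (0.93) and the BMP receptor gene Bmpr1a (0.92), and Gata6 like Magi3 (0.88), Tmem100 (0.88) and Aox1 (0.86). Mef2a was most like Nubpl (0.84), Atf3 (0.84) and Cd300a (0.82), and Mef2c like Pnrc2 (0.84), Eif2ak4 (0.81) and Myo1c (0.79). Hand2 was most like Dixdc1 (0.88), Me1 (0.87) and Rai2 (0.85), and Meis2 like Strn3 (0.88), Tlcd4 (0.86) and Ak4 (0.83). For Meis1 the nearest gene was itself a member of the group, Gata4 (0.90), followed by Hlf (0.88) and Oxnad1 (0.87).

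The next comparison set atrial against ventricular cardiomyocytes of the same heart. Tbx5 and Tbx20 were higher in atrial nuclei, Meis2 and Hand2 were lower, and Gata4, Mef2a and Meis1 stood near equality. Past 1.5-fold in the same direction in 4 of 4 hearts were 2 of the 10 factors higher in atrial nuclei, where 6.89% of 8012 genes with at least 10 CPM in 1 of these classes passed, and 2 lower, where 3.76% passed. The atrial nuclei numbered 183 and 311 in the injured-father hearts and 186 and 50 in the uninjured-father hearts. Among the markers that named the classes, and so no independent check of them, Nppa, the atrial natriuretic peptide gene, was at 1107 against 34.0 CPM on average, and the ventricular light chain gene Myl2 at 199 against 1030 CPM.

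The atrial to ventricular ratio of Tbx5 was 11.2 and 10.5 in the injured-father hearts and 14.5 and 10.7 in the uninjured-father hearts. For Tbx20 the ratios were 2.18, 1.73, 1.69 and 1.60 in the same order. Both were above 1.5 in every heart, and the Tbx20 levels, 473 ± 64.8 against 264 ± 19.1 CPM, did not overlap. Mef2c was higher in atrial nuclei in 4 of 4 hearts without overlap, 376 ± 29.4 against 240 ± 22.8 CPM, at ratios of 1.498 to 1.62, and the lowest of these, in the heart with 50 atrial nuclei, fell just short of 1.5. Meis2 was 287 ± 29.2 CPM in atrial and 578 ± 60.4 CPM in ventricular nuclei, at ratios of 0.44, 0.52, 0.51 and 0.53. Hand2 had ratios of 0.51, 0.52, 0.39 and 0.48, on 7, 13, 6 and 2 atrial UMIs. The last of these, from 2 UMIs, has an exact 95% counting interval of 0.0576 to 1.76, and over all 4 hearts the Hand2 ratio was 0.452 with an interval of 0.298 to 0.659.

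Gata4 was 716 ± 27.2 CPM in atrial and 753 ± 48.9 CPM in ventricular nuclei. Its ratios of 0.93 to 0.99 put it slightly lower in atrial nuclei in 4 of 4 hearts, while the ranges of the levels over hearts overlapped. Gata6 ratios ran from 0.62 to 1.08, Mef2a from 0.90 to 1.08 and Meis1 from 0.92 to 1.05, and the levels of each overlapped. Nkx2-5 ratios ran from 0.72 to 1.80 on 2 to 35 atrial UMIs per heart, so their counting intervals ran from 0.0863 to 2.68 for the heart with 2 UMIs and from 1.21 to 2.63 for the one with 35. Over all 4 hearts the Nkx2-5 ratio was 1.19 with an interval of 0.879 to 1.59, which does not resolve a direction. These intervals cover counting error only. With every nucleus thinned to 1000 UMIs, 2 factors were past 1.5-fold in every heart in the higher direction and 0 in the lower, where Hand2 and Meis2 had log2 ratios of the mean levels of -1.17 and -0.89. With doublets kept, 1 factor was past it in the lower direction, and with nuclei classed by marker score, 1 in each direction.

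Other genes of these pathways were read the same way. Of 5 further GATA, T-box, HAND, MEF2 and TALE genes with enough counts, 0 passed. Of 20 partner genes, 2 passed as higher in atrial nuclei (Ankrd1, ratios 2.23 to 3.47, and Smarcd3, 1.69 to 2.57) and 2 as lower. The lower ones were Prdm16 (ratios 0.07 to 0.27), a zinc-finger regulator, at 96.7 against 762 CPM, and Nfatc2 (0.42 to 0.65), at 81.2 against 159 CPM. Of 6 chamber genes with enough counts, 3 passed, all higher in atrial nuclei: Nr2f1 (14.9 to 27.6), Nr2f2 (8.84 to 11.1), which encodes the atrial factor COUP-TFII, and Etv1 (2.55 to 6.27). Of 27 cardiomyocyte genes known to be driven by these factors, 5 were higher and 5 lower. The higher ones included Nppa (19.7 to 66.2), the gap junction gene Gja5 (18.2 to 43.4) and the muscarinic receptor gene Chrm2 (2.00 to 2.23), and the lower ones included Pln (0.28 to 0.49) and Ckm (0.25 to 0.39). Nppa, Myl7, Bmp10, Myl2, Myl3 and Pln are also in the marker lists that named these classes. The examples were picked after their values were seen.

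**Figure D3:**
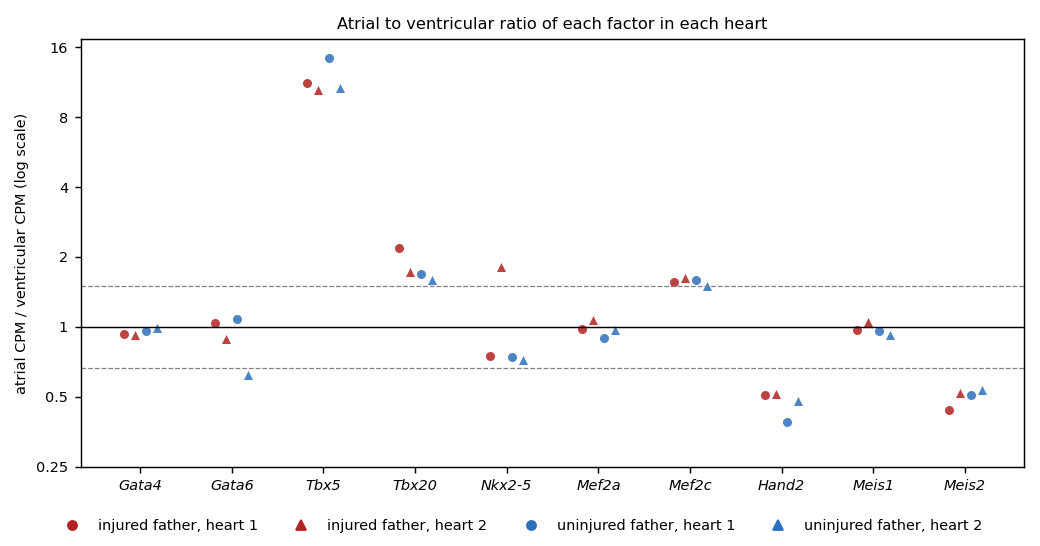
Ratio of CPM in atrial to ventricular cardiomyocytes of the same heart (vertical axis, log scale) for each factor, 1 mark per heart, red for injured and blue for uninjured fathers. The solid line is equality and dashed lines mark 1.5-fold. Tbx5 lies between 10.5 and 14.5 in all 4 hearts, Tbx20 between 1.60 and 2.18, and Meis2 and Hand2 between 0.39 and 0.53.

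The study's own contrast is between offspring of injured and uninjured fathers. None of the 10 factors differed between the father groups in any class at an adjusted p under 0.05: 0 of 103 tests of a factor in a class were called by edgeR's quasi-likelihood test with Benjamini-Hochberg adjustment over all genes, 0 by DESeq2, and 8 had an unadjusted p under 0.05, beside 6.99% of all genes in all nuclei, 4.29% in all cardiomyocytes, 2.99% in ventricular and 5.41% in atrial cardiomyocytes, 4.72% in the Grip1 cluster, 5.06% in endocardial nuclei, 3.23% in fibroblasts, 4.19% in pericytes, 7.18% in macrophages or monocytes, 4.95% in vascular endothelial nuclei, 4.13% in smooth muscle and 4.9% in B lymphocytes. The tests covered 10 separate classes with at least 50 nuclei in every library, and the sums over all cardiomyocytes and over all nuclei. The share of all tested genes called by edgeR was 0.101% in all nuclei, 0.00799% in all cardiomyocytes, 0.00818% in ventricular and 0.0407% in atrial cardiomyocytes, 0.106% in the Grip1 cluster, 0.0742% in endocardial nuclei, 0.0161% in fibroblasts, 0.0299% in pericytes, 0.142% in macrophages or monocytes and 0 in vascular endothelial nuclei, smooth muscle and B lymphocytes. The fold change was positive, that is higher with injured fathers, in 64 of the 103 tests and negative in 39, beside 48.8% to 51.0% of all genes positive. The sums hold the nuclei of the separate classes again, and all tests share the same hearts, so these tests are not independent. The 2 groups did not overlap in 36 of 103, beside 29.6% of all genes in fibroblasts and in ventricular cardiomyocytes to 35.5% in macrophages or monocytes (30.6% in all cardiomyocytes, 31.6% in the Grip1 cluster, 32.3% in pericytes, 33.1% in smooth muscle, 33.2% in endocardial nuclei, 33.7% in B lymphocytes, 34.2% in atrial cardiomyocytes, 34.8% in vascular endothelial nuclei and 35.3% in all nuclei), so the factors' share lies near the background. With 2 hearts against 2, an exact permutation test of 1 value cannot go below p = 0.333. The labels name no father or litter, so p-values measure the spread between these hearts only. Values in the father comparison are CPM after TMM scaling and filtering, in the order injured, injured, uninjured, uninjured.

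In ventricular cardiomyocytes Gata4 was 806, 789, 756 and 668 CPM (log2 fold change 0.16, SE 0.13) and Tbx5 96.4, 127, 90.2 and 96.1 CPM (0.27, SE 0.16). The groups did not overlap for either gene after TMM scaling, and neither was called. Without that scaling Tbx5 was 95.9 and 126 CPM with injured and 88.5 and 99.3 CPM with uninjured fathers, which overlap. The 95% intervals of the fold for the 10 factors in this class lay between 0.63 (the lower limit of Hand2) and 1.53 (the upper limit of Tbx5), so smaller differences were not resolved. In atrial cardiomyocytes Tbx5 was 1096, 1386, 1323 and 1061 CPM with full overlap (0.05, SE 0.18), and Tbx20 was 566, 518, 423 and 433 CPM (0.34, SE 0.18, adjusted p = 0.982), higher in both injured-father hearts. Nkx2-5 and Hand2 had too few counts in atrial nuclei for the test.

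The sum over all cardiomyocytes gave Tbx5 at 184.5 and 280.1 CPM with injured and 174 and 127 CPM with uninjured fathers (0.62, SE 0.21, adjusted p = 1.00 by edgeR). The atrial share of cardiomyocyte nuclei moved with it: 9.59% and 12.3% against 6.47% and 2.36%. Within the separate classes the differences were 0.27 (ventricular), 0.05 (atrial) and 0.18 (Grip1 cluster), each smaller than in the sum. Without the low-count filter the Tbx5 value in the sum was called by edgeR (0.62, adjusted p = 0.00468), while over 13 alternatives it ran from 0.29 to 0.89 with adjusted p from 0.00468 to 1.00. Summed over all nuclei, Tbx5 was 87.1, 142, 102 and 70.3 CPM (0.41, SE 0.25), and without the first injured-father heart it was called there by edgeR (0.71, adjusted p = 0.00272, over alternatives 0.00272 to 1.00). In sums over mixed nuclei, fewer atrial nuclei and less Tbx5 RNA per nucleus cannot be told apart.

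**Figure D4:**
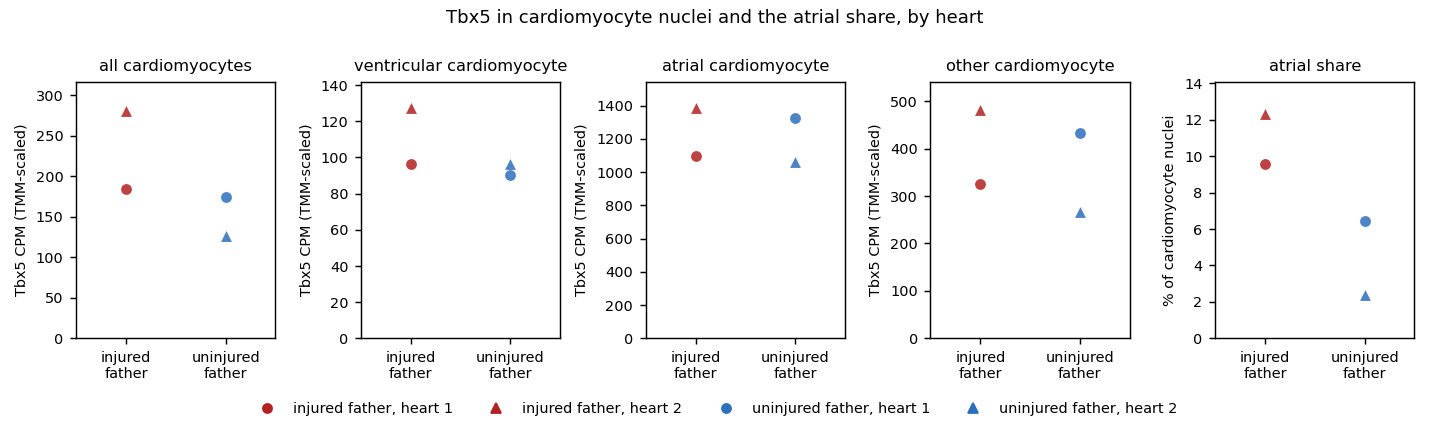
Tbx5 level in TMM-scaled CPM (vertical axes, linear from 0) for each heart in all cardiomyocytes, in the 3 cardiomyocyte classes, and the atrial share of cardiomyocyte nuclei in percent. Circles are the first and triangles the second heart of a group. The groups separate in the sum and in the atrial share, and only narrowly in the ventricular class. They overlap in the atrial and Grip1 classes.

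Endocardial nuclei held 4 of the 8 values with an unadjusted p under 0.05, among 9 factors tested, where 5.06% of all genes in that class had one. Tbx5 was 53.0, 93.8, 44.8 and 21.0 CPM (1.06, SE 0.34, adjusted p = 0.694), on 38, 122, 34 and 7 UMIs. Tbx20 was 126, 134, 80.3 and 102 CPM (0.56, SE 0.22, adjusted p = 0.860). Hand2, which patterns the endocardium and ventricles, was 22.3, 42.3, 56.6 and 74.9 CPM (-0.89, SE 0.32, adjusted p = 0.762), and Meis1 was 278, 299.96, 398 and 381 CPM (-0.43, SE 0.16, adjusted p = 0.853). The groups did not overlap for these 4 or for Mef2a (659, 685, 624 and 617 CPM), which makes 5 of 9 factors in this class, beside 33.2% of all genes. Without the first injured-father heart Tbx5 was called there by edgeR (1.37, adjusted p = 0.0122), and over 13 alternatives it ran from 0.54 to 1.87 with adjusted p from 0.0122 to 1.00. Beside it, Nppa in the same nuclei was 43.3, 73.1, 17.1 and 21.0 CPM, and the 8 atrial markers summed to 145 and 219 CPM with injured and 127 and 118 CPM with uninjured fathers. All 8 had counts in at least 1 library, and 6 to 8 did in each library. In pericytes, Nppa was 51.4, 111, 41.7 and 22.6 CPM and Tbx5 was 19.9, 26.2, 17.2 and 12.8 CPM, in the same order of hearts. The 8 atrial markers summed there to 180 and 315 CPM with injured and 197 and 130 CPM with uninjured fathers, so the groups overlapped for the list. The part of atrial RNA in the endocardial Tbx5 value was not tested.

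In macrophages or monocytes Tbx20 was at 89.6 and 108 CPM with injured against 191 and 179 CPM with uninjured fathers (-0.90, SE 0.21), with the smallest adjusted p of all 103 tests, 0.0827, and it was not called. Without the low-count filter edgeR called it (-0.88, adjusted p = 0.0336). Over 13 alternatives its log2 fold change ran from -1.04 to -0.42 and its adjusted p from 0.00935 to 1.00, and the value of -0.42 came with doublets kept. The 10 fibroblast markers moved the same way in these nuclei, summing to 1942 and 2157 CPM with injured and 2825 and 2477 CPM with uninjured fathers, all 10 being detected in each library. Other marker lists also separated the father groups in these nuclei, in both directions. The macrophage markers summed to 11060 and 12145 CPM with injured and 12844 and 15135 CPM with uninjured fathers. The T or NK lymphocyte markers summed to 811 and 785 CPM against 626 and 688 CPM. Fibroblasts are the class where Tbx20 is highest, and the part of fibroblast RNA in the macrophage value was not tested. Pknox2, another TALE gene, was 39.8, 35.6, 91.9 and 92.9 CPM there and was not called (adjusted p = 0.0551 by edgeR). Within macrophages Mef2a (1271, 1376, 1196 and 1203 CPM) and Mef2c (1160, 1080, 1055 and 1253 CPM), the 2 factors with macrophages among their highest classes, differed by 0.14 and -0.04 on the log2 scale.

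The remaining 2 values with an unadjusted p under 0.05 were Gata6 in smooth muscle (92.5, 62.3, 117 and 165 CPM, -0.80, SE 0.34, adjusted p = 0.996) and Meis1 in B lymphocytes (104, 163, 171 and 292 CPM, -0.75, SE 0.34, adjusted p = 0.975). In the smooth muscle clusters, Gata6 was 41.0, 50.3, 61.6 and 85.2 CPM in the Dgkb cluster and 132, 72.5, 156 and 246 CPM in the Itga8 cluster, without TMM scaling and in the same order. In fibroblasts, where Tbx20 and Meis1 are highest, Tbx20 was 862, 861, 785 and 751 CPM (0.17, SE 0.13) and Meis1 466, 527, 493 and 502 CPM (-0.0016, SE 0.13). In endocardial nuclei, where Meis2 is highest, it was 1500, 1587, 1674 and 1436 CPM (-0.01, SE 0.18).

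**Figure D5:**
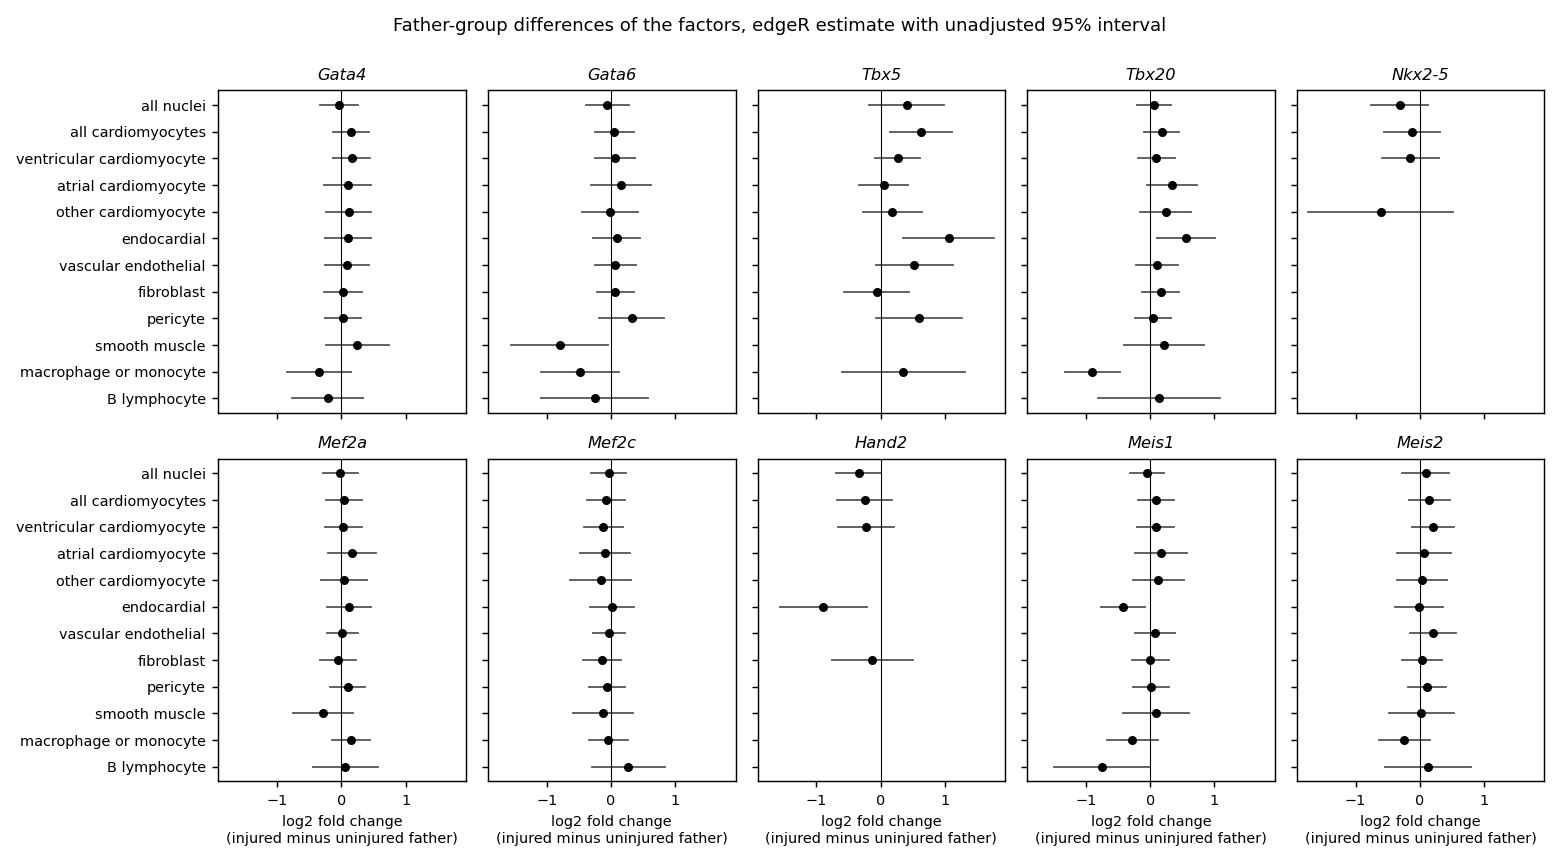
log2 fold change between offspring of injured and uninjured fathers (horizontal axis, positive is higher with injured fathers) for each factor in the classes tested, with the edgeR estimate as a point and its unadjusted 95% interval as a line. Missing lines are factors with too few counts. None of the 103 estimates passed an adjusted p of 0.05, and Tbx20 in macrophages or monocytes lies at -0.90.

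Genes that work with these factors were read from the same fits, and 0 were called in ventricular or atrial cardiomyocytes by edgeR. In ventricular cardiomyocytes, 10 of 14 further GATA, T-box, HAND, MEF2 and TALE genes had a positive fold change (median 0.09), as did 12 of 20 partners (0.02) and 3 of 10 chamber genes (-0.10), beside 49.8% of all genes. Of the 27 genes known to be driven by the factors, 8 were positive and 19 negative (median -0.12) in ventricular, and likewise 8 and 19 (median -0.17) in atrial cardiomyocytes, beside 50.7% of all genes positive there. The split was not limited to cardiomyocytes: of the list's genes tested, 1 was positive and 19 negative in B lymphocytes (median -0.48), 4 and 21 in fibroblasts (-0.18), 4 and 17 in endocardial nuclei (-0.30) and 4 and 18 in macrophages or monocytes (-0.31). It was 9 and 18 in vascular endothelial nuclei (-0.19), 7 and 17 in pericytes (-0.16) and 6 and 14 in smooth muscle (-0.12). Of all genes, 49.0% to 51.0% were positive in these classes. Cardiomyocyte markers in B lymphocytes stood at 13.6% and 17.1% of the ventricular level with injured and 23.4% and 30.1% with uninjured fathers. In macrophages or monocytes the groups overlapped for the 12 general cardiomyocyte markers. The 5 ventricular markers summed there to 1039 and 1162 CPM with injured and 1687 and 1172 CPM with uninjured fathers, without overlap. The 8 atrial markers, at 202 and 301 against 255 and 137 CPM, overlapped. The part of cardiomyocyte RNA in these values was not tested. Myh7, the slow myosin heavy chain gene, was 195, 196, 231 and 392 CPM in ventricular (-0.67, SE 0.22, adjusted p = 1.00) and 134, 166, 248 and 357 CPM in atrial cardiomyocytes (-0.93, SE 0.22, adjusted p = 0.173). Actc1, the cardiac alpha-actin gene, was 236, 274, 381 and 433 CPM in atrial cardiomyocytes (-0.65, SE 0.19, adjusted p = 0.398). Bmp10, an atrial growth factor gene, was near the floor in ventricular nuclei, at 1.16, 2.34, 0 and 0.27 CPM. In atrial cardiomyocytes, without TMM scaling, it was 140, 234, 4.32 and 189 CPM. The first uninjured-father heart thus stood far below the rest for this atrial marker. Whether its atrial nuclei differ in make-up from those of the other hearts was not tested. In atrial cardiomyocytes the 2 smallest p-values among 19 partners belonged to Hopx (-0.62, SE 0.20) and Nfatc2 (-0.71, SE 0.25), and among 3 chamber genes to Etv1 (0.97, SE 0.28) and Nr2f2 (0.37, SE 0.29), with adjusted p from 0.352 to 0.997. In ventricular cardiomyocytes they were Nfatc2 (-0.39, SE 0.13) and Nfatc1 (0.44, SE 0.19) among 20 partners, and Irx1 (0.67, SE 0.42) and Heyl (-0.44, SE 0.29) among 10 chamber genes. Of the further family members, Pbx3 differed by 0.44 on the log2 scale in atrial cardiomyocytes, and Pknox1 and Mef2d by 0.42 and 0.18 in ventricular cardiomyocytes.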

How the data were processed

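Nuclear RNA of 4 hearts was measured with 10x Chromium 3′ v3.1 libraries. The deposited matrices hold whole-number UMI counts per gene and barcode, which the authors' Cell Ranger run (version 6.0.1, per the file headers) produced. Seurat 4.0 appears in the submitters' processing notes. For build, annotation and strand setting, the sources used here give nothing. Barcodes with at least 500 UMIs, at least 300 genes and at most 5% mitochondrial UMIs were kept, called doublets (9.62% to 14.9% per library) were removed, and 33995 of 39696 barcodes remained. Nuclei were clustered with scanpy 1.11.5 on 3000 variable genes, from which the 10 factors and the factor lists were left out, with 30 principal components, 20 neighbours and Leiden resolution 1. Clusters were named from marker lists. Counts were summed per class and library, and levels are CPM of those sums. Father groups were compared with edgeR 4.0.16 (quasi-likelihood test, minimum count 10, TMM scaling, Benjamini-Hochberg adjustment over all genes of a class) in classes with at least 50 nuclei in every library, with DESeq2 1.42.0 as an alternative. The script was tested on simulated data. The factors and the gene lists were chosen with earlier results of these data known. Genes named were all 10 factors in the classes described, the 3 genes most alike to each, and from each list up to 2 genes with the smallest p in a class, others being marked as picked after their values were seen, and some genes under this rule are not reported here. Intervals of ratios are exact binomial intervals at 95%. Alternatives changed the filters, doublets, clustering, classing, scaling, test, replicate block and the libraries used.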

Additional observations from a re-analysis of the deposited data

Results flagged for a closer look

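The difference between father groups in Tbx20 was positive in endocardial nuclei (0.56 on the log2 scale) and negative in macrophages or monocytes (-0.90), with non-overlapping groups in both. Over the alternatives the endocardial value ran from -0.14 to 0.70, so its sign was not stable, and the macrophage value from -1.04 to -0.42. A contrast of father-group differences between classes was tested for 4 factors, after the values were seen. Each time it set the class with the most positive against the class with the most negative non-overlapping value, so the pairs join opposite extremes. For Tbx20 it was 1.45 (SE 0.28, edgeR adjusted p = 0.00192, with 0.255% of 9426 genes called). The adjustment covers the genes and not the choice of classes, which was made from these same values. This p-value therefore cannot decide whether the classes differ. The other 3 were not called by edgeR: Mef2a (0.47, adjusted p = 1), Meis1 (0.92, adjusted p = 0.986) and Meis2 (0.42, adjusted p = 0.897). For Tbx20, leaving out each heart gave 1.25 to 1.62, and without the first uninjured-father heart it was 1.25 with an adjusted p of 0.273. The fibroblast markers in macrophages summed to 1942 and 2157 CPM with injured and 2825 and 2477 CPM with uninjured fathers. Other marker lists also separated the groups there, in both directions, and the part of RNA from other classes in the result was not tested.

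Meis1 stood at 652 CPM (counting interval 577 to 734) over 90 mesothelial or epicardial nuclei of all libraries, on 273 UMIs. This class was too small to compare by heart, and the highest library of any class described held 518 CPM, in fibroblasts.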

How the results depend on the processing

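The number of factors past 1.5-fold in every heart was 2 higher and 2 lower in atrial nuclei. With doublets kept 1 was lower, with nuclei thinned to 1000 UMIs 0 were lower, and with classing by marker score 1 was higher and 1 lower; leaving out single hearts gave 2 to 3 higher and 2 lower. The class with the highest mean stayed the same for 10 of 10 factors at Leiden resolution 2, for 9 with stricter filters, 7 with doublets kept and 6 with classing by marker score, where the Grip1 cluster was not formed, and for 9 to 10 without single hearts. Among father-group tests, 1 factor was called without the low-count filter in all cardiomyocytes (Tbx5, 0.62) and in macrophages (Tbx20, -0.88), and leaving out single hearts gave 0 to 1 in all nuclei and in endocardial nuclei (Tbx5, 0.71 and 1.37 without the first injured-father heart) and 0 elsewhere. The Tbx20 difference between endocardial nuclei and macrophages fell short of the threshold without the first uninjured-father heart (1.25, adjusted p = 0.273 by edgeR). The causes were not tested. DESeq2 called 0 factors, and of 103 fold changes the sign differed in 1 with DESeq2, 28 without the second injured-father heart and 31 without the second uninjured-father heart, the shallowest.

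With the replicate number as a block, 1 factor was called, Tbx20 in macrophages (-0.91, edgeR adjusted p = 0.00935). The numbers are not stated to pair hearts, and same-numbered hearts deviated together with correlations of only -0.02 to 0.10 over classes. The block changed no other call of a factor. Depth limits Nkx2-5 and Hand2 most, with 699 and 1260 UMIs in all, and 2 hearts a group limit every father comparison.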

Other observations

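In the 90 mesothelial or epicardial nuclei, summed over libraries, Meis2 was at 1412 CPM, Gata4 at 437 CPM, Gata6 at 263 CPM, Tbx20 at 112 CPM and Tbx5 at 69.3 CPM. In 310 adipocyte nuclei, Mef2a was at 453 CPM, Meis2 at 370.1 CPM, Meis1 at 295.5 CPM, Gata4 at 93.0 CPM and Tbx20 at 59.1 CPM. These nuclei came unevenly from the hearts, with as few as 2 mesothelial and 6 adipocyte nuclei in 1 heart, so no spread over hearts is given.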
